A study of Mus musculus with 18 samples.

Results

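The genes described here encode the proteins of the cytosolic ribosome, followed through myelination in cultured explants of dorsal root ganglia from mice, the clusters of sensory neurons beside the spinal cord with their Schwann cells, satellite glia and connective tissue. Members were chosen by symbol: Rpl or Rps followed by a number, together with Rplp0, Rplp1, Rplp2 and Rpsa, without pseudogenes and without the Rps6k kinases. The array had a probe for 86 such symbols, out of 20145 symbols with a matched probe. Of these, 84 encode a ribosomal protein or a paralog of one, and 81 of them passed the filter on dim probes and were tested. The paralogs Rpl3l and Rpl10l were not well above background on any of the 18 arrays, and Rpl39l was on 4 of 18. The symbols Rps19bp1 and Rps23rg1 fit the pattern but encode no ribosomal protein and are described apart.

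Ganglia came from C57BL/6J embryos at E13.5 and grew on matrigel for 12 days in growth medium before the experiment began. RNA was taken just before myelination medium was added (day 0), after 10 days in it, at early myelination (day 10), and after 22 days, when mature sheaths were abundant (day 22). For each day there were 3 batches, described in the series' design text as separate pools of embryos and numbered in the sample titles as mouse 1, 2 and 3, with 2 technical arrays of each, which gave 6 one-colour arrays a day and 18 in all. All samples are labelled as controls, and no culture kept without the medium was analysed here, so an effect of the medium cannot be told apart from one of age in culture.

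A ribosome is built of ribosomal RNA and a fixed set of proteins, 1 copy of nearly all of them in each particle, so cells that make ribosomes need the proteins in matched amounts. Most of their mRNAs are TOP mRNAs: they begin with a C followed by a run of pyrimidines, the 5′ terminal oligopyrimidine tract, through which the kinase complex mTORC1 and the RNA-binding protein LARP1 switch their translation and stability. In the nucleolus, RNA polymerase I and a large set of assembly factors make the subunits, and transcription factors of the Myc family raise the supply of both. Ribosomal proteins left without a partner, above all the products of Rpl5 and Rpl11 with 5S rRNA, bind Mdm2 and stabilise p53.

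The tract can be read at the start of the genes themselves. RefSeq promoters (build GRCm38.p6) were given for 63 of the 84 genes, and the transcript of 13 of them (20.6%) began with a C followed by at least 4 pyrimidines. Among all 17492 protein-coding genes of the same table the share was 2.67%, and among 69 genes of mitochondrial ribosomal proteins the pattern was found in 0. A C and 4 pyrimidines within 2 bases of the start were found in 33.3% of the 63 genes, 10.4% of all protein-coding genes and 11.6% of the mitochondrial set. The pattern searched was a C at the start with only C or T at the next 4 bases of the transcribed strand. The windows below were chosen to show the tract at its clearest, and the starts without it of some genes named in the comparisons. Rpl21, Rpl29 and Rpl3 had no start in the promoter table. Each window holds 10 bases before the start and 20 from the start on, and capitals mark the longest run of pyrimidines.
Rpl15, chr14:18270967-18270996, minus strand: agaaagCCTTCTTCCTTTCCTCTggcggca
Rpl35, chr2:39005112-39005141, minus strand: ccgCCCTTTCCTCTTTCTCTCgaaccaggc
Rps10, chr17:27635225-27635254, minus strand: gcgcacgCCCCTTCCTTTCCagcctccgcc
Rps6, chr4:86857348-86857377, minus strand: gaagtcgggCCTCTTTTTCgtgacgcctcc
Rps21, chr2:180257369-180257398, plus strand: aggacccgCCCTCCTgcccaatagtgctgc
Rps27, chr3:90213629-90213658, minus strand: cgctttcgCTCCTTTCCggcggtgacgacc
Rpl18, chr7:45718061-45718090, plus strand: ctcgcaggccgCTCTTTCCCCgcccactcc
Rpl22l1, chr3:28805498-28805527, plus strand: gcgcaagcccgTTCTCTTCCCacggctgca
Rps26, chr10:128626487-128626516, minus strand: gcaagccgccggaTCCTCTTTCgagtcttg
Rps2, chr17:24720053-24720082, plus strand: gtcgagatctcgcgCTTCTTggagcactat
Rpl22, chr4:152324426-152324455, plus strand: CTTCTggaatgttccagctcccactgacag
Rps27l, chr9:66946076-66946105, plus strand: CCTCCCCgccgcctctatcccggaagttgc
In the first 6 windows the run includes the start, base 11. In Rpl18 and Rpl22l1 the run begins at the base after the annotated start, and in Rps26 and Rps2 a few bases further on. In Rpl22 and Rps27l, each of which has another start in the table, the longest run in the window shown ends before the start. The windows of Rpl18 and Rps27l count among those with a C and 4 pyrimidines within 2 bases of the start. A RefSeq start is the end of an annotated transcript, so the true first base may differ by a few positions.

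The text gives levels as the log2 of the signal relative to the 75th percentile of the same array, so that 0 is the percentile itself, and differences as the later day minus the earlier day in log2 units. A difference is given ± its standard error from limma (9 values, 1 for each of 3 batches on each of 3 days), and passes the threshold at a Benjamini-Hochberg adjusted p below 0.05 over all 22854 features. The arrays were placed in batches in 2 ways that disagreed: in the authors' value table, 12 of 18 columns stood under a sample other than the one whose array file held those values, always of the same day. The placement by the array files (array-file batches) is the one behind every value unless another is named, and each call was repeated with the placement by the value table (table batches). The words rose and fell are kept for genes past the threshold both ways. Signals of the probes used ran between 267 and 303325, with a median of 90002, below the scanner's saturation value of 779032, and no spot of a member was saturated. The precision is limited by the number of arrays, and the p-values measure the spread between 3 batches as placed. By limma's F test, 0.00% of all features differed between array-file batches within days, against 8.69% between table batches. The median SD between batches was 0.15 and 0.18 over all features, and 0.09 for the members both ways. The median SD between arrays of 1 batch was 0.21 with array-file batches and 0.17 with table batches, over all features. In a fit with the slide of each array as a term, limma's consensus correlation of arrays of 1 array-file batch was -0.20. The arrays of 1 array-file batch were thus no more alike than arrays of different batches. Whether array-file batches keep the arrays of 1 pool together was not settled. Their p-values may rest on averages over arrays of different pools, and their spread need not be that between pools.

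Between day 0 and day 22 the mRNAs of the ribosome differed little, and a smaller share of them than of all features passed the threshold. In this longest comparison, 2 of the 81 genes were higher and 9 lower (13.6%), against 44.4% of all features. Table batches called 0 higher and 3 lower, Rpl21, Rpl29 and Rpl3, against 32.2% of all features. The same 3 were called both ways, against 31.2% of all features (12.6% higher and 18.6% lower). A replicate block with array-file batches called 2 higher and 10 lower, against 45.7% of all features, and the block with table batches called 1, Rpl21, against 34.1%. None of the 81 differed by as much as 1.5-fold, against 26.1% of all features. The differences ran between -0.57 and 0.27 with a median of -0.05, against -0.08 for all features.

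**Figure D1:**
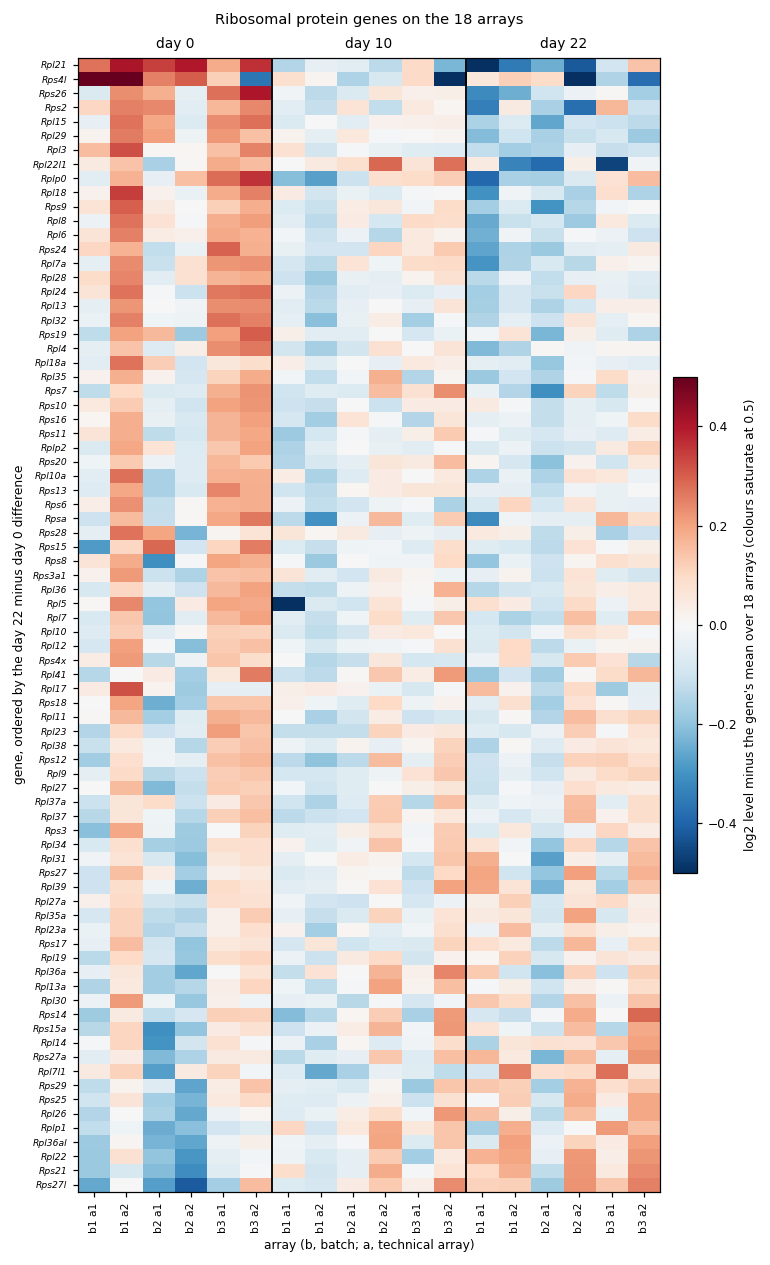
Colours give the log2 level of 80 of the 81 ribosomal protein genes (rows, ordered by the day 22 minus day 0 difference) on each of the 18 arrays (columns, by day, batch and technical array), minus the mean of the gene. Whole columns are redder or bluer together, Rpl21 at the top is high on all day 0 arrays, and at the foot the arrays of batch 2 at day 0 are blue.

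Fewer members passed in the 2 shorter intervals. At day 10 against day 0 the median was -0.05, the range -0.41 to 0.21, and 1 of 81 genes passed, Rpl21, lower, against 29.2% of all features (11.4% higher and 17.8% lower). Rpl21 was also the 1 gene called with table batches (13.8% of all features), both ways (13.5%, of which 5.75% higher and 7.72% lower) and with the block and array-file batches (30%). The block with table batches called 0 genes, against 16.3% of all features. At day 22 against day 10 the median was -0.01 and the range -0.31 to 0.23, and limma called 0 of 81, against 9.65% of all features (4.21% higher and 5.44% lower). The count was also 0 with table batches (2.01% of all features), both ways (1.95%, of which 0.49% higher and 1.46% lower), with the block (11.3%) and with the block and table batches (3.13%). Batch values did not overlap in 11 genes at day 10 against day 0 and in 12 at day 22 against day 10, against 49.2% and 33.5% of all features, and the arrays did not overlap in 1 gene each time, against 17.1% and 8.64%. By unadjusted p under 0.05, 3 genes were called in each of these intervals and 15 at day 22 against day 0, where the shares of all features were 40.7% at day 10 against day 0, 26.6% at day 22 against day 10 and 52% at day 22 against day 0. The comparisons share days, so their values are not independent of each other.

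The intervals of the differences give the size that these arrays could have missed. For day 22 against day 0 the 95% interval lay inside 1.5-fold in either direction for 79 of 81 genes, against 48.9% of all features and 83.2% of the 825 features, other than members, whose mean level was at or above the 10th percentile of the members (bright features). The other 2 genes were Rpl21 and Rps4l. Between day 10 and day 0 it was again 79 of 81, the exceptions being the same 2 genes, and at day 22 against day 10 all 81. The bright features are the closer comparison, since their errors were alike (median standard error 0.09 for both sets). Among them 26.8% passed at day 22 against day 0 (18.5% both ways), 11.8% at day 10 against day 0 (5.7%) and 3.88% at day 22 against day 10 (0.97%). Their differences reached -2.94 and 2.31 at day 22 against day 0. In that comparison 6.79% of the bright features differed by more than 1.5-fold, a smaller share than the 26.1% of all features.

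**Figure D2:**
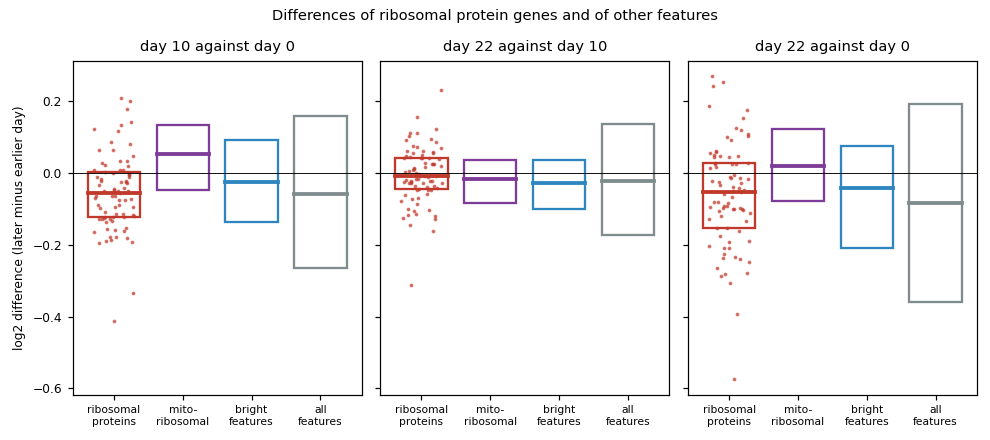
Boxes span the middle 50% of log2 differences with the median as a thick line, for ribosomal protein genes (with each of the 81 genes as a point), mitochondrial ribosomal protein genes, bright features and all features, in 3 comparisons. The red boxes of the ribosomal proteins are narrower than the grey boxes of all features in each panel, and at day 22 against day 0 the points run from -0.57 to 0.27.

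Genes of both subunits and of the paralogs were among the calls, and the subunits were not tested against each other. Of 30 small subunit genes, 1 was higher and 2 lower at day 22 against day 0 with array-file batches, with a median difference of -0.09. Of 46 large subunit genes, 1 was higher and 6 lower, with a median of -0.04. Of 5 paralogs tested, 0 were higher and 1 lower, with a median of 0.11. Batch values of day 22 and day 0 did not overlap in 20 of 81 genes (13 lower and 7 higher), against 52.3% of all features, and the 6 arrays of each day did not overlap in 5 genes, against 22.9%.

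Rpl21, a large subunit protein, changed most. Its level was -1.34 at the lowest, -1.13 at the median and -0.69 at the highest over the arrays of day 22, between -1.06 and -0.74 with a median of -0.93 at day 10, and between -0.65 and -0.43 with a median of -0.48 at day 0. All day 10 and day 22 arrays were below all day 0 arrays, while days 22 and 10 overlapped. Rpl21 fell by 0.57 ± 0.11 at day 22 against day 0 (limma adjusted p = 0.00404, 0.00733 with table batches and 0.0117 with these and a replicate block), which is 1.49-fold. It also fell by 0.41 ± 0.11 at day 10 against day 0 (adjusted p = 0.0271, and 0.0494 with table batches), a call that was lost with the replicate block added to table batches (adjusted p = 0.0558). At day 22 against day 10 it differed by -0.16 ± 0.11 (adjusted p = 0.416). The arrays lay on 3 slides, of which slides 1 and 2 held all 3 days. Averaged by batch and day, slide 1 held 5 values, with batch 1 alone at day 22, and slide 2 held 6. At day 22 against day 0 Rpl21 differed by -0.77 within slide 1, for which no p is given. Within slide 2 it passed (-0.60, limma adjusted p = 0.0474). The other probe of the gene differed by -0.54 at day 22 against day 0, without a test of its own. Both probes were dim for a member, with mean levels of -0.83 and -1.78, where the 10th percentile of the members was 5.83. Whether they measure the main transcript of Rpl21 was not tested.

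Rpl29, a protein on the surface of the large subunit that also binds heparin, had a level of 7.44 at the lowest, 7.52 at the median and 7.58 at the highest on the arrays of day 22. At day 10 the values were 7.61, 7.66 and 7.71, and at day 0 they were 7.63, 7.83 and 7.92. Every day 22 array was below every array of the other days, while days 10 and 0 overlapped. Rpl29 fell by 0.28 ± 0.06 at day 22 against day 0 (limma adjusted p = 0.00649, and 0.0415 with table batches), 1.21-fold, and the block added to table batches lost the call (adjusted p = 0.0534). Within slide 1 the difference was -0.33, and within slide 2, with 6 values in all, it was -0.17 (limma adjusted p = 0.407). The second probe of Rpl29 differed by -0.36.

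Rpl3, whose protein reaches towards the peptidyl transferase centre, lay between 6.47 and 6.60 with a median of 6.52 at day 22, between 6.55 and 6.72 with a median of 6.59 at day 10, and between 6.65 and 6.96 with a median of 6.79 at day 0. The arrays of day 22 and day 0 did not overlap. It fell by 0.26 ± 0.08 at day 22 against day 0 (limma adjusted p = 0.0231, and 0.0340 with table batches) and the call was lost when the block was added to table batches (adjusted p = 0.0564). Within slide 1 the difference was -0.27, and within slide 2, with 6 values in all, it was -0.23 (limma adjusted p = 0.290). The limma adjusted p without 1 batch of day 22 or day 0 ran between 0.00729 (without batch 2 of day 0) and 0.0741 (without batch 1 of day 0). At day 10 against day 0 Rpl3 differed by -0.18 ± 0.08 (adjusted p = 0.118).

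**Figure D3:**
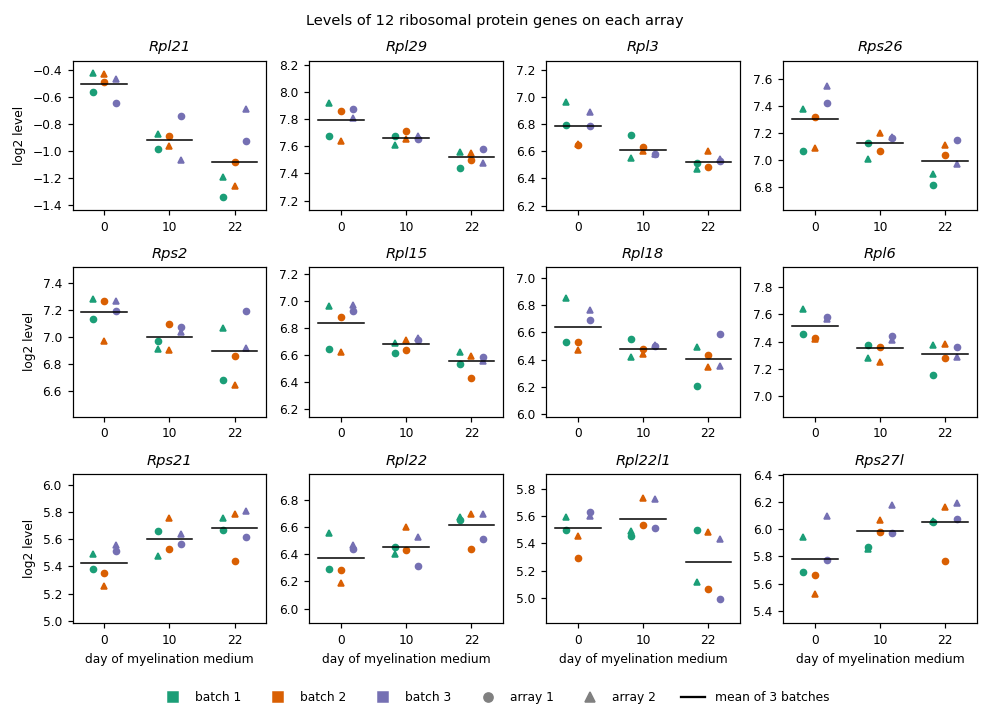
Points give the log2 level of 12 ribosomal protein genes on each array against the day of myelination medium, coloured by batch with a shape for each technical array, and lines give the mean of 3 batches. Each panel spans the same height in log2 units. Rpl21 and Rpl29 are lower on all day 22 arrays than on all day 0 arrays. In Rpl22l1 the 2 arrays of each array-file batch lie apart at day 22.

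The other calls at day 22 against day 0 passed with array-file batches alone. On the small subunit these were Rps26, at the exit of the mRNA channel (-0.31 ± 0.10, limma adjusted p = 0.0363, and 0.0567 with table batches), and Rps2, near the entry of that channel (-0.29 ± 0.09, adjusted p = 0.0302 and 0.117). Rps26 had levels of 6.82 to 7.14 at day 22 and 7.07 to 7.55 at day 0, and Rps2 had 6.65 to 7.19 at day 22 and 6.97 to 7.28 at day 0, so that the arrays overlapped in both. On the large subunit Rpl15 differed by -0.28 ± 0.07 (adjusted p = 0.0141, and 0.0636 with table batches), with 6.43 to 6.62 at day 22 against 6.62 to 6.96 at day 0 and, before rounding, no overlap. Rpl18 differed by -0.24 ± 0.08 (adjusted p = 0.0415 and 0.112). Rpl6, outside the rule for named genes and named after its values were seen, differed by -0.21 ± 0.07 (adjusted p = 0.0441, 0.0822 with table batches and 0.0518 with array-file batches and the block).

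A pair of genes passed in the other direction, again with array-file batches alone. The small subunit gene Rps21 lay between 5.44 and 5.81 with a median of 5.71 at day 22, and between 5.26 and 5.56 with a median of 5.44 at day 0, a difference of 0.25 ± 0.08 (limma adjusted p = 0.0291, and 0.0605 with table batches). Rpl22, a large subunit protein that also binds RNA outside the ribosome, lay between 6.44 and 6.70 with a median of 6.67 at day 22, and between 6.19 and 6.56 with a median of 6.36 at day 0. It differed by 0.24 ± 0.08 (adjusted p = 0.0379, 0.0840 with table batches and 0.0559 with array-file batches and the block). The arrays of the 2 days overlapped in both genes. The second probe of Rpl22 differed by -0.11, against the direction of the first.

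Several ribosomal proteins have a close relative that can take their place in the particle, and the paralogs were set against their partners. Rpl22l1 lay between 4.99 and 5.50 with a median of 5.28 at day 22, against 5.45 to 5.74 with a median of 5.52 at day 10 and 5.29 to 5.64 with a median of 5.55 at day 0. It differed by -0.25 ± 0.09 at day 22 against day 0 (limma adjusted p = 0.0463, 0.145 with table batches and 0.0704 with the block) and by -0.31 ± 0.09 at day 22 against day 10 (adjusted p = 0.0588). Its partner Rpl22 ran the other way by its brightest probe, as given above. The second probe of Rpl22 (mean level 3.59, against 6.48) differed by -0.11 at day 22 against day 0 and by -0.11 against day 10. The pair difference uses the brightest probe alone. Its change would be smaller with the second probe, for which it was not computed. The signals of probes of 2 genes are not levels on 1 scale, so only the change of their difference is read. Rpl22l1 minus Rpl22 was -1.35 ± 0.05 at day 22, -0.88 ± 0.08 at day 10 and -0.86 ± 0.03 at day 0 (SD, n = 3 batches). It was thus lower by 0.49 at day 22 than at day 0 and by 0.47 than at day 10, 1.41-fold and 1.38-fold, and the 6 arrays of day 22 did not overlap those of either day. An exact permutation test over 3 batches a day gave p = 0.1 for both, the smallest that it can give, and 0.188 after adjustment over the 15 comparisons of pairs. With table batches p was also 0.1.

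Rps27l, a relative of Rps27 known as a target of p53, lay between 5.76 and 6.19 with a median of 6.07 at day 22, and between 5.52 and 6.10 with a median of 5.73 at day 0. It differed by 0.27 ± 0.11 at day 22 against day 0 (limma adjusted p = 0.0668, and 0.0490 with the block), the highest positive difference of the 81 genes, while Rps27 differed by 0.03. The pair difference Rps27l minus Rps27 was higher by 0.24 at day 22 than at day 0 and by 0.23 at day 10 than at day 0 (exact permutation p = 0.1 for each, 0.188 adjusted), and the arrays overlapped. Rpl36al minus Rpl36a was higher by 0.14 at day 22 than at day 0 (exact p = 0.1, 0.188 adjusted), and Rpl7l1 minus Rpl7 was higher by 0.25 at day 22 than at day 10 (exact p = 0.1, 0.188 adjusted), with overlapping arrays in both. With table batches the exact permutation p was 0.4 for Rpl36al, and 0.1 for Rpl7l1 and for both intervals of Rps27l. Rps4l, a mouse relative of the X-linked Rps4x, was the most variable of the 81 genes, with an SD of 0.33 over 18 arrays. It lay between 1.87 and 2.63 at day 22 and between 2.15 and 3.10 at day 0, a difference of -0.39 ± 0.18 (limma adjusted p = 0.110, 0.0940 with table batches, and 0.0244 with the block and array-file batches). Rps4l minus Rps4x differed by -0.35 between day 22 and day 0 (exact permutation p = 0.3, 0.45 adjusted, and 0.1 unadjusted with table batches).

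The proteins with known roles outside the particle's core gave values within the same bounds. In the stalk that recruits elongation factors, Rplp0 differed by -0.24 ± 0.14 at day 22 against day 0 (limma adjusted p = 0.188, and 0.0394 with the block), Rplp1 by 0.18 ± 0.08 (0.124) and Rplp2 by -0.10 ± 0.08 (0.331). Rpsa, also known as the laminin receptor precursor, lay between 7.57 and 8.06 at day 22 and between 7.77 and 8.15 at day 0, a difference of -0.09 ± 0.12 (adjusted p = 0.553). Rps6, the protein that S6 kinase phosphorylates, differed by -0.10 (adjusted p = 0.348). The p53 regulators Rpl5 and Rpl11 differed by -0.06 and -0.03 (adjusted p = 0.696 and 0.839). Rps19, the gene most often mutated in Diamond-Blackfan anaemia in humans, differed by -0.15 (adjusted p = 0.185). Rps27a, made as a fusion with ubiquitin, differed by 0.10 (adjusted p = 0.371). The 3 smallest differences at day 22 against day 0 were those of Rpl37a, Rpl27 and Rpl9, each -0.01, with 95% intervals that lay between -0.23 and 0.20. At day 10 against day 0 they were those of Rps7, Rpl35a and Rpl38, and at day 22 against day 10 those of Rpl24, Rpl31 and Rps15, each 0.00 in size.

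Among themselves the genes varied together from array to array. With the day means removed, the correlation of a gene with the median of the other members over 18 arrays had a median of 0.77 and was over 0.5 in 75 of 81 genes, against a median of 0.09 over all features, of which 12.6% were over 0.5. These arrays share scaling, labelling and slide, so the correlations are a description. Rps25 (0.94) and Rpl32 (0.91) were among those that followed the others most closely. Rps4l ran against them (-0.55), and Rpl21 (0.02), Rpl17 (0.26), Rps2 (0.27) and Rps28 (0.28) hardly followed them. The median SD over 18 arrays was 0.12 for the 81 genes, 0.15 for bright features and 0.28 for all features, and it was lowest in Rpl10 (0.08).

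This joint movement within a day spanned more than the median difference between days of -0.05. The median deviation of the members from their means was between -0.12 and 0.06 on the arrays of day 22, between -0.10 and 0.07 at day 10 and between -0.09 and 0.15 at day 0. The 2 arrays of 1 array-file batch could stand as far apart as the days, as in batch 1 of day 0 with -0.05 and 0.15. Table batches place these 2 arrays in different batches, 1 and 2, so the gap need not be technical. Neither way of giving batches found a member that differed between batches within days by limma's F test, although table batches differed in 8.69% of all features and array-file batches in 0.00%. Without batch 2 of day 0 the median difference at day 22 against day 0 was -0.12 and 13 genes passed. Of all 22854 features, 3402 were then higher and 5745 lower. Without batch 3 of day 0 the median was -0.01 and 7 genes passed, with 3454 features higher and 5024 lower.

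The sign of the small median at day 10 against day 0 depended on the scaling. Centring each array on its median gave 0.02 at day 10 against day 0, with 0.02 for all features, and scaling by spike-in RNA gave -0.33 at day 10 against day 0 and -0.23 at day 22 against day 0, with -0.34 and -0.26 for all features, which are close to the members' values. The levels here are relative to the other mRNAs of an array, and an amount per cell was not measured.

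Of the 81 genes, 50 had more than 1 probe that passed the filter, and these measured the gene again on the same arrays. Between day 22 and day 0 their differences lay a median of 0.06 apart, 13 genes had probes of both signs, and the gap exceeded 1.5-fold in 2 genes, Rpl6 (0.59) and Rps15a. In Rpl6 the probe that stood apart had a mean level of -4.96 and differed by -0.80, against -0.21 for the brightest probe, and in Rps15a it had a mean level of -3.32 and differed by -0.49, against 0.09. Ribosomal protein genes have many processed pseudogenes of nearly the same sequence, which a probe may not tell apart from the gene, and where probes of a gene disagree its value is uncertain.

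**Figure D4:**
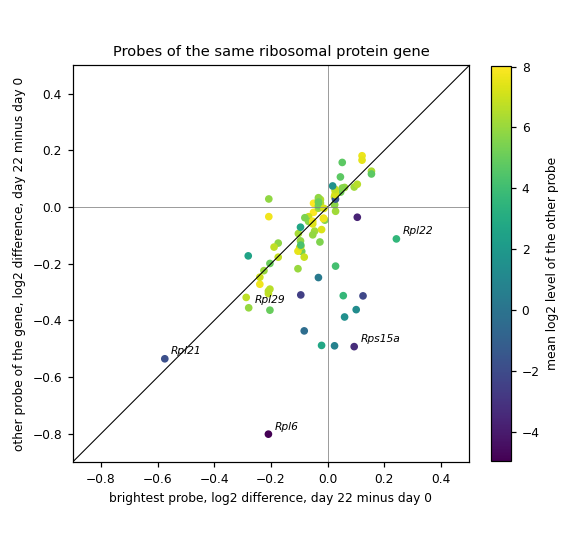
Each point is 1 of 85 other probes of 50 genes, with the log2 difference at day 22 against day 0 of the brightest probe of the gene on the horizontal axis and that of the other probe on the vertical axis, coloured by the mean level of the other probe. The line marks equal differences, and the points farthest below it, the 1 of Rpl6 and the 1 of Rps15a, are probes of low mean level, while Rpl21 and Rpl29 lie close to it.

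The genes with and without the tract at the start are given side by side. The 13 genes with a C and 4 pyrimidines at the RefSeq start had a median difference of -0.03 at day 22 against day 0, with 2 past the threshold by array-file batches, and the 47 tested genes of the table without it had a median of -0.05, with 6 past it, against 44.4% of all features. Both ways of giving batches called 0 of these 8. This 0 was fixed in advance, since the genes called both ways, Rpl21, Rpl29 and Rpl3, have no start in the table. The 2 with the run that passed were Rpl15, lower, and Rps21, higher.

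Genes that translate, build or regulate ribosomes passed the threshold at day 22 against day 0 in about the same share as all features. Over 4 lists with 151 tested genes in all, 6 were higher and 63 lower (45.7%), against 44.4% of all features (17.1% higher and 27.3% lower), and at day 10 against day 0 the share was 31.8%, against 29.2%. Of 33 translation factors and other products of TOP mRNAs, 0 were higher and 15 lower (45.5%), with a median of -0.22. Both ways of giving batches called 7 of them, all lower, where 18.6% of all features were lower both ways. The RNA-binding protein Hnrnpa1 had levels of 2.33 to 2.81 at day 22 and 3.06 to 3.56 at day 0 and fell by 0.65 ± 0.09 (limma adjusted p = 0.000855). The initiation factor subunit Eif3f fell by 0.54 ± 0.07 (adjusted p = 0.000587) and the elongation factor Eef2 by 0.45 ± 0.09 (adjusted p = 0.00517), and in these genes the arrays of the 2 days did not overlap. Already at day 10, against day 0, Pabpc1, which binds poly(A) tails, fell by 0.43 ± 0.07 (adjusted p = 0.00378) and the histone chaperone Nap1l1 by 0.35 ± 0.07 (adjusted p = 0.0104).

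The ribosome assembly list had 0 of 74 genes higher and 25 lower at day 22 against day 0, with a median of -0.17. The 25 were 33.8% of the list, where 27.3% of all features were lower and 44.4% passed in either direction. Both ways of giving batches called 9, all lower, where 18.6% of all features were lower both ways. At day 10 against day 0 the list had 20 lower, against 17.8% of all features lower. Both ways it had 2 lower, against 7.72% (7 with the block added to table batches). Fbl, the methyltransferase fibrillarin, fell by 0.65 ± 0.12 at day 22 against day 0 (limma adjusted p = 0.00257), Rrp1b by 0.67 ± 0.08 (0.000455) and Noc3l by 0.58 ± 0.09 (0.00131). Rrp1b lay between -1.98 and -1.47 at day 22 and between -1.42 and -0.55 at day 0. In Fbl and Noc3l the arrays of the 2 days overlapped. Already at day 10, against day 0, Noc3l fell by 0.74 ± 0.09 (adjusted p = 0.00123) and Rrs1 by 0.55 ± 0.11 (0.00675).

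In the list of TOR signalling, Myc factors and TOP mRNA control, 2 of 32 genes were higher and 19 lower at day 22 against day 0. These were 65.6%, against 44.4% of all features, and the median was -0.34. Both ways of giving batches called 1 higher and 14 lower, against 31.2% of all features (12.6% higher and 18.6% lower). Mxd3, a partner of Max tied to cell division, fell by 3.15 ± 0.18 (limma adjusted p = 1.5e-05) and lay between -4.76 and -2.56 at day 22 and between -0.34 and 0.16 at day 0. Mycn fell by 1.76 ± 0.17 (0.000129), and Deptor, an inhibitor that binds mTOR, by 0.97 ± 0.11 (0.000283). The LARP1 gene Larp1, named after its values were seen because it binds the tract shown above, fell by 0.52 ± 0.08 (0.000913), and Mtor itself differed by -0.00 ± 0.07 (0.974). The stress sensor Sesn1 rose by 0.55 ± 0.12 (0.00610). In the later interval, day 22 against day 10, Mxd3 fell by 2.18 ± 0.18 (limma adjusted p = 0.000960), while Mycn (-1.10, adjusted p = 0.00862, and 0.133 with table batches) and Sesn3 (-0.46, 0.0246 and 0.0513) passed one way only. In the earlier one, day 10 against day 0, Deptor fell by 0.83 ± 0.11 (0.00159) and Eif4ebp1, a repressor of cap-dependent translation that mTORC1 inactivates, by 1.17 ± 0.22 (0.00545).

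Of 15 genes of ribosomal stress and p53 surveillance, 5 were higher and 5 lower at day 22 against day 0 (66.7%, against 44.4% of all features). Their median was -0.02. Both ways of giving batches called 3 higher and 1 lower, against 31.2% of all features (12.6% higher and 18.6% lower). Cdkn2a, which encodes an inhibitor of Mdm2 and a cell cycle inhibitor, rose by 2.33 ± 0.16 (limma adjusted p = 2.74e-05), with levels of 3.03 to 3.93 at day 22 and 0.63 to 1.49 at day 0. Cdkn1a, the p53 target p21, differed by 0.51 ± 0.12 (adjusted p = 0.00865, and 0.0634 with table batches), and Mdm2 by 0.02 ± 0.07 (0.809). The p53 gene Trp53 differed by -0.46 ± 0.12 (adjusted p = 0.0149, and 0.169 with table batches), and its target Bbc3, which promotes cell death, by -0.77 ± 0.15 (0.00339 and 0.0502). Sesn2 fell by 0.39 ± 0.09 (0.00699), and Cdkn2a had already risen at day 10, by 1.87 ± 0.16 against day 0 (0.000302).

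**Figure D5:**
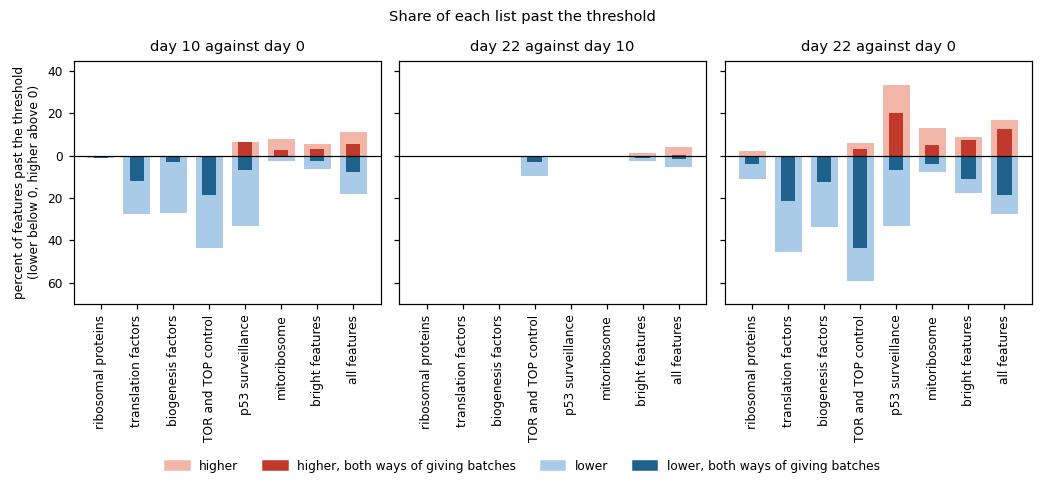
Bars give the percent of features past the threshold in 3 comparisons, higher above 0 and lower below it, for the ribosomal protein genes, 4 lists of genes that act on them, mitochondrial ribosomal protein genes, bright features and all features; dark bars count calls made with both ways of giving batches. At day 22 against day 0 the bars of TOR and TOP control reach furthest below 0 (19 of 32 genes) and those of the ribosomal proteins are short (9 of 81 lower and 2 higher).

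The genes of mitochondrial ribosomal proteins, whose products translate the mitochondrial genome, were set beside the cytosolic ones. Of 77 tested, 10 were higher and 6 lower at day 22 against day 0 (20.8%, against 44.4% of all features, and 4 and 3 genes both ways, against 31.2%), with a median of 0.02 and differences between -0.39 and 0.48. For day 10 against day 0, 6 were higher and 2 lower (10.4%, against 29.2% of all features, and 2 and 0 genes both ways, against 13.5%). Mrpl33 rose by 0.48 at day 22 against day 0 (limma adjusted p = 0.00529) and Mrps18c by 0.40 (adjusted p = 0.00401). None of the 77 differed by as much as 1.5-fold in any of the 3 comparisons, which was also so for the 81 cytosolic genes.

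The symbols that fit the rule without encoding a ribosomal protein gave 3 calls with array-file batches and none with table batches. Rps19bp1, a nucleolar protein that binds Rps19, differed by -0.24 ± 0.07 at day 22 against day 0 (limma adjusted p = 0.0197, and 0.0919 with table batches) and by -0.25 ± 0.07 at day 10 against day 0 (adjusted p = 0.0262 and 0.124). Rps23rg1, a mouse retrogene made from Rps23 mRNA, differed by -0.32 ± 0.11 at day 22 against day 0 (adjusted p = 0.0404 and 0.189).

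Marker genes of cell types and of cell division changed over the same days. On day 22 against day 0, 13 of 14 macrophage markers were higher and 22 of 22 cell cycle genes lower, and of 14 genes of Schwann cells and myelin 6 were higher and 2 lower, where 17.1% of all features were higher and 27.3% lower. Of 16 neuronal genes, 0 were higher and 6 lower (37.5%), and of 9 fibroblast genes 3 were higher and 3 lower (66.7%), against 44.4% of all features in either direction. The median deviation of the macrophage markers was between 0.42 and 2.85 on the arrays of day 22 and between -2.70 and -0.78 at day 0, and that of the cell cycle genes between -2.87 and -0.98 at day 22 and between 1.14 and 1.56 at day 0. The genes of neurons and of Schwann cells and myelin all passed the filter on dim probes. The RNA is that of the whole culture, so fewer cells of a type and less RNA per cell cannot be told apart, and the part that these shifts have in the levels of ribosomal protein mRNAs was not tested.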

How the data were processed

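Total RNA of 3 batches per day at 3 days was hybridised to one-colour Agilent arrays (62976 spots, 3671 of them controls, array design on mm9). The deposited intensity values are processed signals from Agilent Feature Extraction 10.7.1, background-subtracted by the scanner software, per the submitters' processing notes and the file headers. The deposited value table holds log2 values of the same arrays; their normalization is not given in the sources used here. Its columns matched the array files of their own sample in 6 cases and of another sample of the same day in 12, so each call was made with the batches of either source.

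Processed signals were taken as log2 and each array's 75th percentile over probes was subtracted, with no pseudocount. A probe was kept if, on some day, all 6 arrays had it well above background. Spots of a probe and technical arrays of a batch were averaged, 35 missing values in kept probes were imputed (0 of members), the brightest probe stood for a gene, and limma 3.58.1 (R 4.3.3, with the R package data.table at version 1.17.8) fitted 9 batch values over 22854 features with Benjamini-Hochberg adjustment. Paralog pairs had exact two-sided permutation tests. The fit was tested on simulated data.

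Per the series' design text a batch number stands for 1 collection of ganglia from its own pool of embryos (the sample titles write mouse 1, 2 or 3). Equal numbers were thus read as pairing the days. The main fit had no term for batch, so its p-values are unpaired, and the replicate block is the fit that used the pairing. The correlations of same-numbered deviations from the day means ran between -0.13 and 0.37 (6 of 9 over 0.1). With table batches they ran between -0.08 and 0.46 (8 of 9 over 0.1). Named were, in each comparison, up to 8 called members per direction by size of difference, the 3 with the smallest difference, the paralogs and their partners, the stalk proteins, Rpsa, Rps6, Rpl5, Rpl11, Rps19 and Rps27a, and from each list up to 3 called genes per direction by size. The values of 1 member are not reported here singly, though it is counted among the 81. Members and lists were chosen with earlier results of these data known. A mean-signal normexp setting and protein sequences were planned and not used; normexp ran on median signals instead. RefSeq start windows were on GRCm38.p6. Alternatives covered background correction, scaling, filter, probe choice, technical arrays, slide, batches and leaving out each batch.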

Additional observations from a re-analysis of the deposited data

Results flagged for a closer look

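Of 114 groups of 6 arrays tested, 5 held an array whose gap to its nearest neighbour took up more of the group's range than Dixon's 95% critical value allows; chance marks about 1 in 20 groups. Rpl7l1 was at -1.26 on array 1 of batch 2 at day 0, where the other arrays lay between -0.99 and -0.86. Rps27l was at 5.76 on array 1 of batch 2 at day 22, where the others lay between 6.06 and 6.19. At day 10, batch 1 array 1 held Rplp2 at 7.72 (others 7.82 to 7.88) and Rpl5 at 4.95 (others 5.38 to 5.55), and batch 1 array 2 held Rpl24 at 7.34 (others 7.42 to 7.46). The causes were not tested.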

How the results depend on the processing

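Over 23 alternatives, the 83 named members and comparisons gave 1743 values with the same call, 138 that lost the call, 28 that gained one and 0 that turned round. Most of the 83 were not called in the main fit, so most of the 1743 stayed uncalled. Calls at day 22 against day 0 were lost most often by Rpl22l1 (19 of 23 alternatives), Rpl22 (18) and Rpl18 (17). Rpl21 kept its call at day 22 against day 0 in all 23, and Rpl29 and Rpl3 lost theirs in 6 and 14. Slide 1 alone, counted among the 23, held only batch 1 at day 22, so its calls carry little weight. With array-file batches the replicate block lost the calls of Rpl22l1, Rpl6 and Rpl22 at day 22 against day 0, gained those of Rps4l, Rplp0, Rpl8 (adjusted p = 0.0356, against 0.0579 by limma without it) and Rps27l, and changed no other call among the 81 genes in the 3 comparisons. Counts of ribosomal protein genes depended strongly on the setting, and the cause was not tested.

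At day 22 against day 0, 11 genes passed, 2 higher and 9 lower, with 3909 of all 22854 features higher and 6246 lower. Brackets below give the features higher and lower at a setting. Table batches gave 3 (2970 and 4396), and these with the replicate block 1 (3105 and 4690). Normexp gave 17, of which 7 were higher and 10 lower (4240 and 5801). Median scaling gave 7, of which 2 were higher and 5 lower (4048 and 5743). Spike-in scaling gave 1, lower (1806 and 3478), and the authors' values 6, of which 3 were higher and 3 lower (3246 and 4190). No filter gave 3 (3755 and 5468, of 37208). The first technical arrays gave 1 (1897 and 2528), and the second 1 (2510 and 3764). The slide as a block gave 25, of which 5 were higher and 20 lower (4650 and 7831), and slide 2 alone 1, lower (1243 and 1605). Leaving out 1 batch gave 3 to 13 genes and medians of -0.12 to -0.01. It was 3 without batch 1 (3997 and 5431) or batch 2 (3163 and 4903) of day 22. It was 4 without batch 1 (3369 and 5403) and 13 without batch 2 (3402 and 5745) of day 0. At day 10 against day 0, 1 passed (2605 and 4078 features). Normexp gave 3 (2793 and 3628), the mean of probes 2 (2620 and 4262), and the slide as a block 8 (3596 and 5324). Leaving out a batch gave 0 to 3, with medians of -0.11 to -0.01. The count was 0 with table batches and the replicate block (1697 and 2034), and with median scaling (3361 and 2761). It was also 0 with spike-in scaling (1059 and 2649), the authors' values (1530 and 1575) and no filter (2095 and 3137, of 37208). The first technical arrays (456 and 400), the second (1304 and 1923) and slide 2 (220 and 176) gave 0 as well. At day 22 against day 10, 0 passed (962 and 1243 features). Normexp gave 2 (1044 and 1411), median scaling 1 (741 and 1938), and the slide as a block 3 (2087 and 2990). Leaving out a batch gave 0 to 1, with medians of -0.03 to 0.02. Medians under spike-in scaling were -0.33, 0.092 and -0.23 at day 10 against day 0, day 22 against day 10 and day 22 against day 0, and -0.062 under median scaling at day 22 against day 10.

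Of the 151 listed genes of translation, assembly, TOR control and p53, 69 passed at day 22 against day 0. The features past the threshold at each setting are those given above or in brackets. Table batches gave 34, with the replicate block 37, spike-in scaling 18, the authors' values 32, first and second arrays 13 and 31. Slide 2 alone gave 3, and leaving out a batch 42 to 70. At day 10 against day 0, where 48 passed, these were 13 (1347 and 1814 features), 16, 16, 13, 2 and 14, 1, and 26 to 57. At day 22 against day 10, where 3 passed, table batches gave 1 (120 and 339 features) and with the replicate block 1 (317 and 399). Normexp gave 7, median scaling 5 and the slide as a block 14. First and second arrays gave 0 (24 and 63) and 1 (61 and 216). Slide 2 alone gave 0 (0 and 0), and leaving out a batch 2 to 9.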
